A study of Mus musculus with 24 samples.

Results

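A set of 10 genes is described here across hind paw, dorsal root ganglia (DRG) and spinal cord of mice treated with an agonist of the lymphotoxin beta receptor (LTβR). They are Bcl6b, Apln, Aplnr, Tek, Tie1, Kdr, Flt1, Cdh5, Pecam1 and Dlc1, which make up 10 of the 22609 gene symbols counted in every library. They were picked by symbol as genes of endothelial growth and identity, with earlier results of these data known, among them the paw values of Bcl6b and Dlc1. Changes between groups within the paw, and levels of treated paw beside other tissues, are therefore given as a description, with no p-value for any of the 10. Counts of the 10 called within the paw are printed, and nothing is read from them. Tests are given for DRG, for cord and for the levels of paw controls against DRG controls, although those paw controls also entered the known paw changes. All 10 passed the filter on low counts in each tissue.

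RNA was sequenced from 24 libraries in 8 groups of 3, all from male C57 mice aged 8 to 12 weeks. The control groups, in paw and DRG, had received 10 µg of IgG into the hind paw and were sampled 1 day later. The day 1 groups had received 1 injection of 10 µg of an agonist antibody against LTβR, and the day 6 groups 2 such injections, which the labels mark as 1d and 3d. Day 6 therefore differs from the other groups in time and in number of injections. For paw and DRG the labels count its 6 days from the first injection, and for cord they give no starting point. Paw samples were punch biopsies, DRG were those of levels L3 to L5, and the spinal cord was its lumbar portion. Spinal cord controls were not analysed here, so in cord only the days are compared. Samples carry a number and no animal identity in the labels, and p-values therefore cover variation among samples that could be technical.

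Blood vessels are lined by endothelial cells, which are held together by VE-cadherin (Cdh5) and by the adhesion molecule Pecam1. They grow in response to VEGF, which binds the receptor tyrosine kinases Kdr and Flt1, and they mature under angiopoietins, which bind Tek. LTβR, found on endothelial and other stromal cells, belongs to the tumour necrosis factor receptor superfamily and activates both branches of NF-κB signalling.

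Promoters from the RefSeq table of build GRCm38.p6, covering 250 bases before to 50 bases after a gene's start, matched 5 of the 10 genes: Apln, Tek, Tie1, Kdr and Flt1. Bcl6b, Aplnr, Cdh5, Pecam1 and Dlc1 did not match. The promoters of Apln (chrX:48034804-48035103, minus strand), the ligand, shown for its level in cord, and of the VEGF receptors Kdr (chr5:75978406-75978705, minus strand) and Flt1 (chr5:147725962-147726261, minus strand) are shown. Capitals mark the ETS letters AGGAAG on either strand, named for a family of transcription factors active in endothelium, and the NF-κB consensus on either strand.
Apln: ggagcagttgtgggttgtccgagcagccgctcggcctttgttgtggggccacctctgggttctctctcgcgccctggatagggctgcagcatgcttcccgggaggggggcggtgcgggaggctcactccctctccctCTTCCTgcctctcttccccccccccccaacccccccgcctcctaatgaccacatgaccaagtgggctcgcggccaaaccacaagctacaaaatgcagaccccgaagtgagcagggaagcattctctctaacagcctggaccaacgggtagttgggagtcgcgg
Kdr: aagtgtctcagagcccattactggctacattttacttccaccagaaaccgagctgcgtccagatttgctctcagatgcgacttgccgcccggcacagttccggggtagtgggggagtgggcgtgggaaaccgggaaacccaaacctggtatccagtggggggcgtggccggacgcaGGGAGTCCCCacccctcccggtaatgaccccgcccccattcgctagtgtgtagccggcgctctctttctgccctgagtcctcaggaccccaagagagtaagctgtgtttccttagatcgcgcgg
Flt1: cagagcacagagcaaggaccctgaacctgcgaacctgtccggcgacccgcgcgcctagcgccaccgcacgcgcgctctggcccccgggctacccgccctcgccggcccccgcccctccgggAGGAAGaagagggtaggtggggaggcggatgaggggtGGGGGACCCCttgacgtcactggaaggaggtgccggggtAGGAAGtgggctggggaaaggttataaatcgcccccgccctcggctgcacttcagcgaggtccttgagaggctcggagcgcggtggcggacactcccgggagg
AGGAAG was present in 3 of the 5 promoters (Apln, Tie1 and Flt1), against 35.4% of 32851 promoters of the same length. An NF-κB consensus was present in 2 of 5 (Kdr and Flt1), against 4.51% of all. The SOX letters ACAAT, not capitalised, were present in Tek alone among the 5, against 31% of all. No match overlapped another, and a match describes letters in a window, not a binding site.

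Paw libraries held between 24228438 and 41037458 gene-assigned reads, DRG libraries between 21562694 and 34244912, and cord libraries between 15685843 and 26285770. Counts per gene and library ranged from 37 for Bcl6b to 6227 for Pecam1. Keratinocyte genes marked the paw (54200 to 102300 summed CPM, which are counts scaled to a common library size, against at most 171 elsewhere), sensory neuron genes the DRG (4941 to 6125 against at most 167) and astrocyte and oligodendrocyte genes the cord (6121 to 7445 against at most 807). The 33 pan-endothelial genes, none of them among the 10, summed to 896 to 1641 CPM in paw, 688 to 813 in DRG and 888 to 1094 in cord, with none at 0. In paw, IgG library 1 stood apart: its 14 skeletal muscle genes summed to 261 CPM against 6289 to 44300 in the other 8 libraries, and its pan-endothelial sum of 896 CPM was the lowest in the tissue. That library was also the lowest of the 3 paw controls for all 10 genes and the lowest of all 9 paw libraries for 9 of them. In DRG IgG library 1, 31.5% of reads were assigned to no feature, against 13.1 to 13.8% in the other 8. Skeletal muscle genes in DRG summed to 97.2 to 5830 CPM in IgG, 96.3 to 7034 on day 1 and 108.5 to 616.5 on day 6. In whole tissue, fewer endothelial cells and less RNA per cell cannot be told apart.

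**Figure D1:**
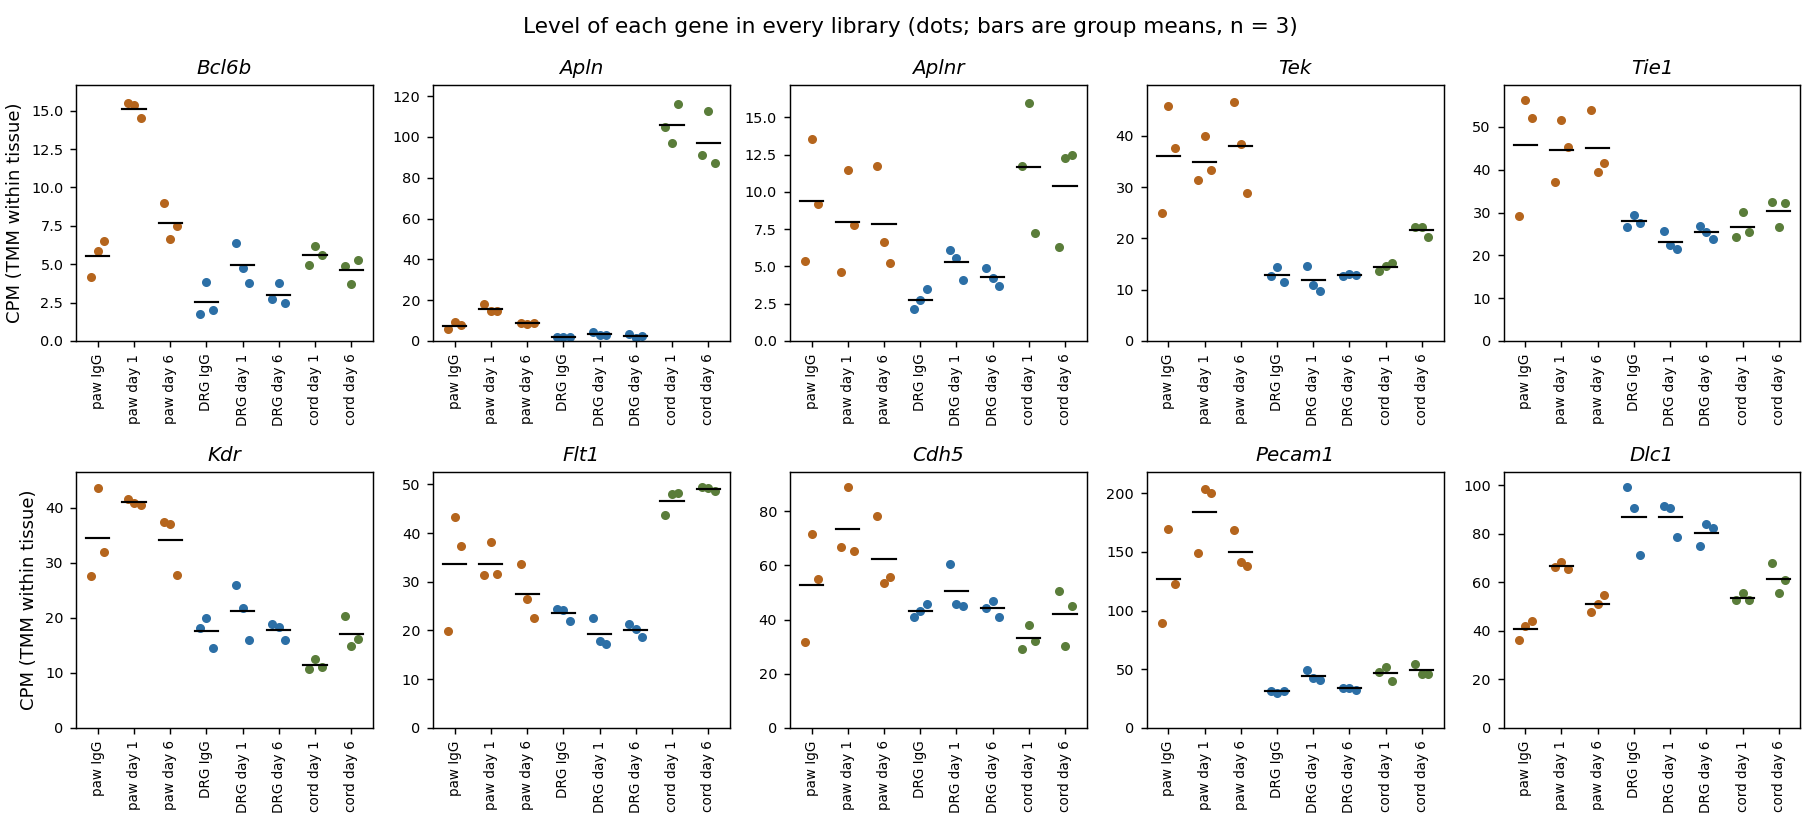
CPM, normalised by TMM within each tissue, for each of the 10 genes in all 24 libraries (dots) with group means (bars, n = 3). Paw day 1 stands above paw IgG without overlap for Bcl6b, Apln and Dlc1, and Apln in cord lies between 87.1 and 116 CPM, above every paw and DRG library.

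Per kb of exon, the order of the genes differed between tissues. In paw controls Pecam1, a junctional adhesion molecule also carried by platelets and leukocytes, was highest at 20.4 ± 6.48 CPM per kb (SD, n = 3 here and below), followed by Cdh5 at 12.5 ± 4.80 and the Tie receptor Tie1 at 9.33 ± 2.98, each overlapping the next in the order. Bcl6b, a transcriptional repressor related to Bcl6, was lowest at 1.48 ± 0.326. Its range of 1.11 to 1.74 lay below that of its neighbour in the order, Apln (1.84 to 2.94), and overlapped those of Flt1 at 2.49 ± 0.901 and Aplnr at 2.54 ± 1.11.

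In DRG controls Cdh5 was highest at 10.3 ± 0.559 CPM per kb, above Dlc1 (5.93 ± 0.980), Tie1 (5.68 ± 0.295) and Pecam1 (4.97 ± 0.170). Dlc1 overlapped both of the latter, whereas Tie1 lay above Pecam1 without overlap. Apln, Bcl6b and Aplnr were lowest, at 0.605 ± 0.0538, 0.677 ± 0.306 and 0.750 ± 0.185, and did not differ beyond their spread. In cord on day 1 Apln was highest at 33.7 ± 3.03 CPM per kb. The next were Cdh5 at 7.88 ± 1.04 and Pecam1 at 7.44 ± 1.01, which overlapped each other and not Apln. Kdr was lowest at 1.26 ± 0.0981 and overlapped Bcl6b at 1.497 ± 0.162.

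**Figure D2:**
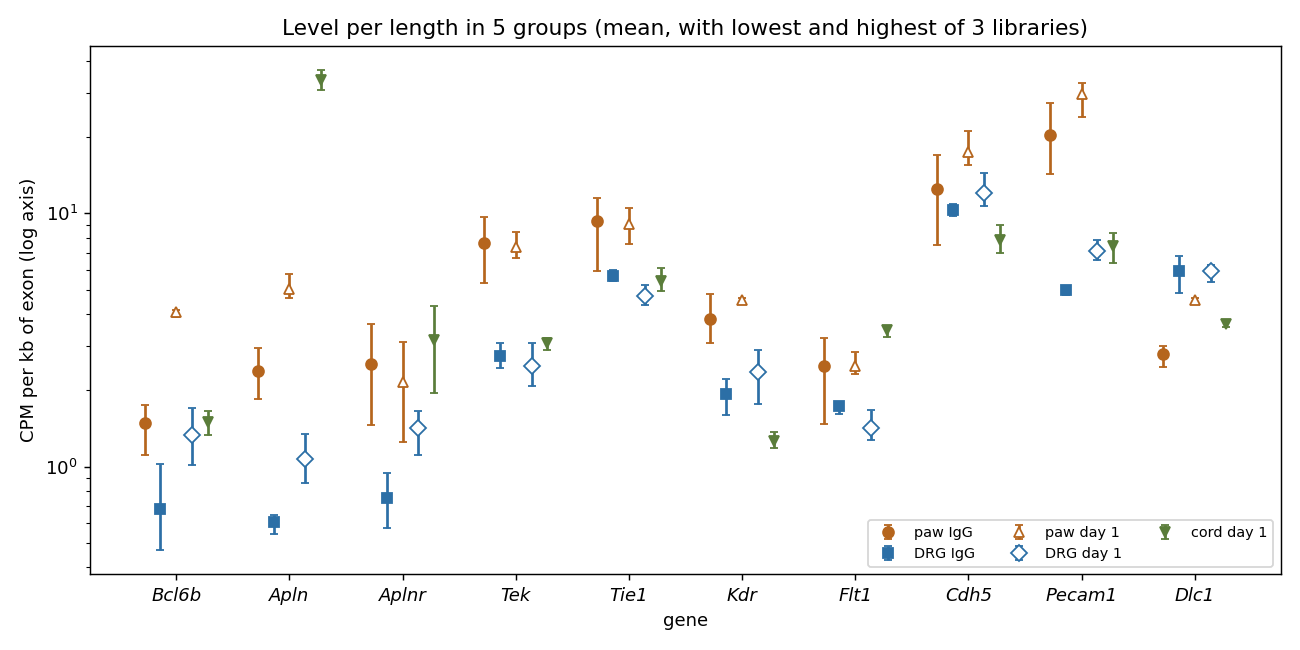
Level of each gene as CPM per kb of exon on a log axis, in 5 groups; points are means and bars run from the lowest to the highest of 3 libraries. Pecam1 leads in paw, Cdh5 in DRG and Apln in cord, where its mean is 33.7 CPM per kb.

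Between tissues most of the 10 genes differed, as did most genes measured. In IgG controls 8 genes were called higher in paw than in DRG and Dlc1 lower, so that 9 of 10 passed an adjusted p of 0.05 in an edgeR fit to all 24 libraries, where 80.7% of 16864 genes passed (40.2% higher in paw and 40.5% lower). The largest difference was that of Pecam1, at 131 ± 37.4 CPM in paw and 30.7 ± 0.989 in DRG (log2 2.09 ± 0.16, SE, adjusted p = 2.67e-10). Apln and Aplnr, a peptide ligand and its G protein-coupled receptor, were 4.12-fold and 3.48-fold higher in paw (adjusted p = 3.80e-08 and 3.73e-04). The receptors followed in the order Tek at 1.54 ± 0.18, Kdr at 1.04 ± 0.17, Tie1 at 0.77 ± 0.17 and Flt1 at 0.57 ± 0.18 on the log2 scale. Cdh5 was not called, with 54.3 ± 19.2 CPM in paw and 42.9 ± 2.31 in DRG (adjusted p = 0.155). Dlc1, which encodes a protein of focal adhesions, was 2.04-fold lower in paw (42.3 ± 3.07 against 86.4 ± 14.3 CPM, adjusted p = 1.62e-08). Over libraries left out in turn the number called was 8 to 10.

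On day 1 Apln separated cord from both other tissues. It was at 103 ± 9.90 CPM in cord and 3.34 ± 0.779 in DRG, 30.8-fold apart (log2 -4.94 ± 0.22, adjusted p = 2.84e-13), and at 16.2 ± 1.97 in paw, 6.33-fold below cord. Per 1000 CPM of the summed pan-endothelial genes it was at 114 ± 16.05 in cord, 4.45 ± 0.789 in DRG and 11.9 ± 2.82 in paw. Between tissues the level of Apln thus did not follow the pan-endothelial sum, and which cells of the cord carried Apln was not tested. Its receptor Aplnr was 2.16-fold lower in DRG than in cord (adjusted p = 0.0155). Between paw and cord the log2 difference of Aplnr was -0.47 ± 0.37, and the groups overlapped.

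The VEGF receptors went in opposite directions between DRG and cord. Kdr, the main signalling receptor for VEGF-A, was 1.91-fold higher in DRG (21.1 ± 5.03 against 11.1 ± 0.830 CPM, adjusted p = 1.20e-04), whereas Flt1, a high-affinity VEGF receptor with weak kinase activity that also has a soluble form, was 2.37-fold lower (19.0 ± 2.94 against 45.2 ± 2.65, adjusted p = 5.58e-06). Cdh5 and Dlc1 were also higher in DRG, by 1.56-fold and 1.66-fold. Between DRG and cord 6 of 10 genes were called, against 64.2% of all genes tested. Bcl6b, Tek, Tie1 and Pecam1 did not pass, with log2 differences of -0.13 ± 0.25, -0.26 ± 0.18, -0.17 ± 0.17 and -0.03 ± 0.16.

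Within each library the ratio of Kdr to Flt1 per kb, chosen after the values were seen, was 0.344 to 0.386 on day 1 and 0.450 to 0.616 on day 6 in cord. It was 0.987 to 1.23 in DRG controls, 1.38 to 1.83 on day 1 and 1.27 to 1.35 on day 6. In paw it was 1.28 to 2.08, 1.60 to 1.99 and 1.66 to 2.10. The 2 agonist groups of DRG thus lay above the controls without overlap, and the 3 paw groups overlapped. No test was made of this ratio. The ratio of Tek to Tie1 per kb was 0.437 to 0.511 in DRG controls, 0.752 to 0.896 in paw controls and 0.511 to 0.620 in cord on day 1.

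In the injected paw day 1 libraries had more RNA of Bcl6b, Apln and Dlc1 than IgG libraries, without overlap, and the receptors Tek, Tie1 and Flt1 were near the control mean. Of the 10 genes 3 were higher without overlap and none lower, where 6.4% of 15287 genes tested were higher without overlap and 15% did not overlap in either direction. None of the 10 passed the adjusted threshold in edgeR (0.00654% of genes did), and 4 had an unadjusted p under 0.05, as did 1626 of 15287 genes (10.6%). DESeq2 called 3 (Bcl6b, Apln and Dlc1) among 209 genes in all, and limma voom 0 of the 10 and 1 gene in all. Since the genes were chosen with these values known, nothing is read from these counts.

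Apln had 5.80, 9.25 and 7.58 CPM in the IgG libraries, 18.2, 14.6 and 14.8 on day 1 and 8.89, 8.17 and 8.95 on day 6. Every day 1 library was above every IgG and day 6 library, and the day 6 libraries lay within the control range. The fold on day 1 was 2.10 (log2 1.07 ± 0.18). Aplnr, its receptor, had 5.40, 13.6 and 9.20 CPM in IgG, 4.61, 11.4 and 7.80 on day 1 and 11.7, 6.62 and 5.25 on day 6. These 3 groups overlapped throughout, with log2 changes of -0.24 ± 0.45 on day 1 and -0.25 ± 0.44 on day 6.

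Kdr had 27.7, 43.6 and 32.02 CPM in IgG, 41.7, 40.8 and 40.4 on day 1 and 37.4, 37.1 and 27.8 on day 6. The day 1 libraries were close to one another and inside the control range, and all 3 were above the day 6 libraries. Flt1 had 19.9, 43.4 and 37.4 CPM in IgG, 31.3, 38.2 and 31.6 on day 1 and 33.6, 26.4 and 22.5 on day 6. Its groups overlapped, with log2 changes of 0.01 ± 0.27 on day 1 and -0.29 ± 0.27 on day 6.

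Tek, the receptor for angiopoietins, had 25.1, 45.8 and 37.6 CPM in IgG, 31.3, 39.9 and 33.4 on day 1 and 46.6, 38.4 and 29.0 on day 6. Tie1, a related receptor without a firmly assigned ligand that modulates Tek, had 29.2, 56.3 and 52.2 CPM in IgG, 37.2, 51.5 and 45.4 on day 1 and 54.0, 39.5 and 41.5 on day 6. Neither gene separated the groups, and the log2 changes lay between -0.05 and 0.07 with SE of 0.24.

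The junction genes were higher in mean on day 1, with overlap. Cdh5 had 31.5, 71.7 and 54.9 CPM in IgG, 66.7, 88.9 and 65.3 on day 1 and 78.2, 53.3 and 55.6 on day 6. Pecam1 had 89.0, 169 and 123 CPM in IgG, 149, 204 and 201 on day 1 and 169, 142 and 138 on day 6. For both, IgG library 2 was above at least 1 day 1 library. The log2 changes on day 1 were 0.48 ± 0.29 and 0.54 ± 0.22.

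Bcl6b had 4.15, 5.88 and 6.48 CPM in IgG, 15.5, 15.4 and 14.5 on day 1 and 8.98, 6.65 and 7.49 on day 6. The day 1 libraries were 2.75-fold above the controls (log2 1.46 ± 0.19) and above all day 6 libraries, which themselves lay just above the highest control. Dlc1 had 36.3, 42.0 and 44.2 CPM in IgG, 66.3, 68.2 and 65.3 on day 1 and 47.9, 50.9 and 54.7 on day 6. It showed the same order of groups without overlap, with a day 1 fold of 1.63 (log2 0.71 ± 0.09).

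On day 6 in paw, Bcl6b (log2 0.48 ± 0.18) and Dlc1 (0.33 ± 0.09) were above IgG without overlap, 2 of 10 against 8.22% of all genes higher without overlap and 14.1% in either direction. None of the 10 passed in edgeR, where 0.706% of all genes did, and 2 had an unadjusted p under 0.05, as did 1489 of 15287 genes. DESeq2 called 1, Dlc1, among 509 genes in all. From day 1 to day 6 the values of Bcl6b, Apln, Dlc1 and Kdr were lower without overlap, by 1.96-fold, 1.83-fold, 1.30-fold and 1.203-fold. This was 4 of 10, against 9.57% of all genes lower and 22.2% in either direction, and edgeR called 1 (Bcl6b) where 0.0785% of all genes passed as lower. That call was lost under a replicate block, with the stricter filter on low counts and in each of the 6 fits that left out a library of the compared groups. Nothing is read from it, since paw values entered the choice of the genes.

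Paw IgG library 1 was low in both muscle and endothelial genes. Leaving it out gave day 1 log2 changes of 1.31 for Bcl6b, 0.93 for Apln, 0.65 for Dlc1, 0.36 for Pecam1, -0.26 for Tie1 and -0.24 for Flt1. With the score of the pan-endothelial genes as a covariate, the same genes were at 1.33, 0.98, 0.68, 0.33, -0.27 and -0.24, and with the score of the muscle genes at 1.27, 0.91, 0.64, 0.36, -0.28 and -0.26. On day 6 the summed macrophage genes of the paw were at 902 to 1437 CPM against 313 to 443 in IgG and 288 to 469 on day 1. Of 12 such genes 8 were called higher against IgG, where 0.706% of all genes were called in either direction. The platelet genes were at 95 to 114 CPM on day 6 against 64.3 to 76.0 in IgG and 67.2 to 71.5 on day 1. Of the 4 platelet genes tested on day 6 against IgG 2 were positive and 2 negative, with 1 higher and 1 lower without overlap and a median of -0.07. Their part in the day 6 values of Pecam1 was not tested.

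**Figure D3:**
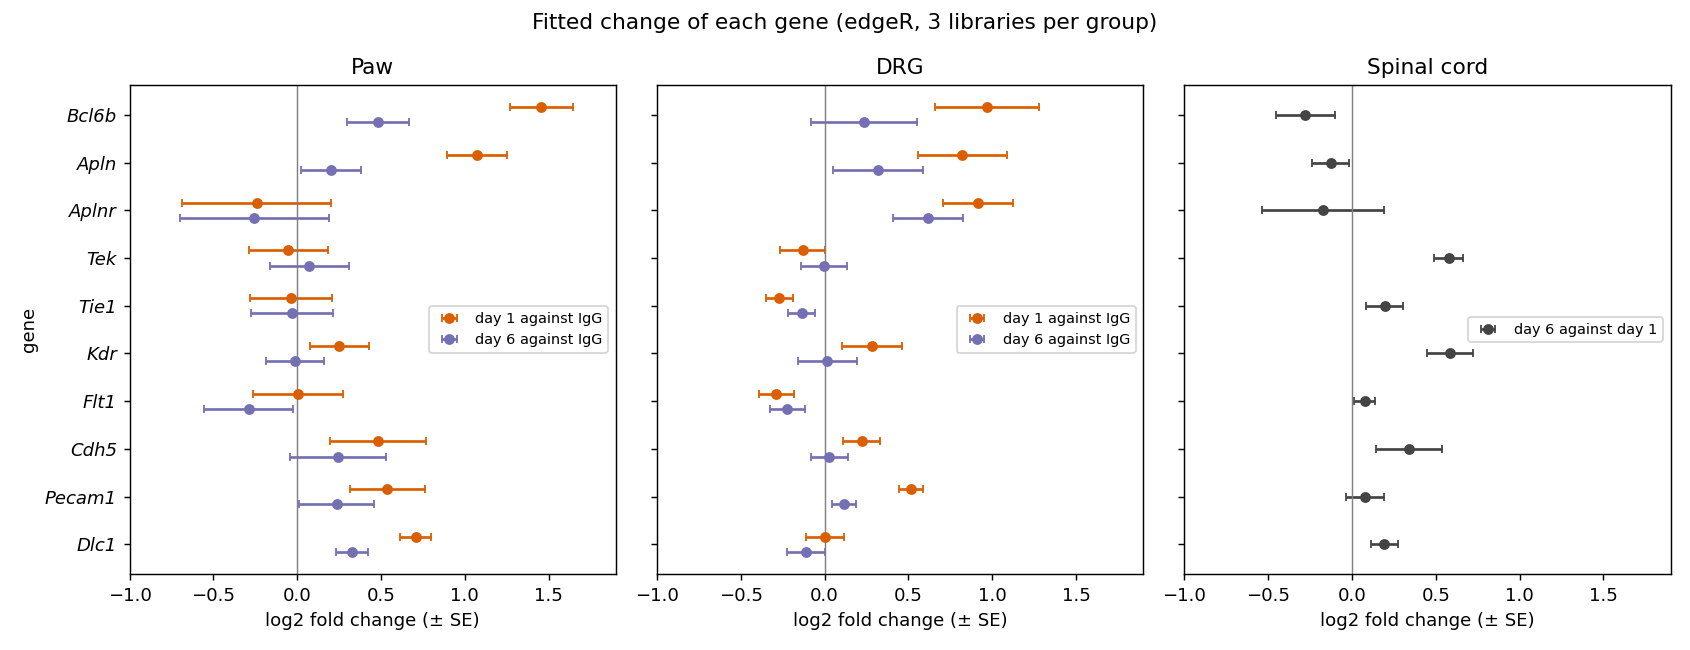
Fitted log2 fold changes with standard errors (edgeR, 3 libraries per group) of the 10 genes in paw and DRG against IgG, and in spinal cord for day 6 against day 1. The day 1 change of Dlc1 is 0.71 in paw and 0.00 in DRG, and Tek and Kdr in cord are at 0.58 each.

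In DRG, which lie at a distance from the injected paw, Pecam1 rose on day 1 and was the only one of the 10 genes called by edgeR. DESeq2 also called Aplnr, among 131 of 15461 genes. Pecam1 had 31.5, 29.7 and 31.6 CPM in IgG, 49.1, 42.8 and 40.9 on day 1 and 34.0, 33.8 and 32.6 on day 6. Each day 1 library was above each of the other 6, and the day 6 libraries were just above the controls. The rise was 1.43-fold, from 30.9 ± 1.06 to 44.3 ± 4.32 CPM (log2 0.52 ± 0.07, edgeR adjusted p = 0.0173), and ranked 13th by p of 15461 genes, of which 0.168% were called. The gene was higher in 3 of 3 libraries. The call was lost when only the compared groups were fitted (adjusted p = 0.10) and when IgG library 1, 2 or 3 or day 1 library 2 was left out (0.0726, 0.110, 0.0544 and 0.0574), with log2 changes of 0.48 to 0.54 in those 5 fits. It was kept without day 1 library 1 (0.43, adjusted p = 0.0448) or 3 (0.57, adjusted p = 0.00980). Since Pecam1 is also carried by leukocytes and platelets, those markers are given. Summed macrophage genes were at 221 to 250 CPM in IgG and 245 to 263 on day 1. Of 12, 1 was called (Mrc1), and 6 were higher and 2 lower without overlap, against 7.55% and 5.65% of all genes. Unadjusted edgeR p were under 0.05 for 8 of the 12, as for 1144 of 15461 genes. Platelet genes were at 17.7 to 37.2 CPM in IgG and 24.6 to 29.8 on day 1. None of 6 tested was called, and 2 had an unadjusted p under 0.05. The part of leukocytes and platelets in the rise was not tested.

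The apelin pair was higher on day 1 in DRG without overlap, short of the threshold. Aplnr had 2.11, 2.73 and 3.48 CPM in IgG, 6.13, 5.56 and 4.12 on day 1 and 4.91, 4.23 and 3.72 on day 6. All 6 agonist libraries were above all 3 controls. The day 1 change was 0.92 ± 0.21 (adjusted p = 0.194), and DESeq2 called it (adjusted p = 0.0184). Apln had 1.97, 1.71 and 2.03 CPM in IgG, 4.24, 2.71 and 3.16 on day 1 and 3.24, 1.54 and 2.32 on day 6. Its day 1 libraries were above the controls, with a change of 0.82 ± 0.26 (adjusted p = 0.439).

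The receptors of DRG had lower means for Tie1 and Flt1. Tie1 had 26.6, 29.5 and 27.7 CPM in IgG, 25.6, 22.5 and 21.4 on day 1 and 26.9, 25.5 and 23.9 on day 6. Its day 1 libraries were all below the controls (log2 -0.27 ± 0.08, adjusted p = 0.367). Flt1 had 24.4, 24.3 and 21.9 CPM in IgG, 22.6, 17.8 and 17.2 on day 1 and 21.3, 20.4 and 18.7 on day 6. One day 1 library overlapped the controls (log2 -0.29 ± 0.10, adjusted p = 0.538), and the day 6 libraries did not (-0.22 ± 0.10, adjusted p = 0.995). Kdr had 18.1, 20.0 and 14.4, then 26.0, 21.8 and 15.95, then 18.8, 18.4 and 15.9 CPM, and Tek ranged from 9.83 to 14.5 CPM over the 9 libraries. Neither separated the groups, with day 1 changes of 0.28 ± 0.18 and -0.13 ± 0.14.

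Bcl6b had 1.74, 3.82 and 2.00 CPM in the DRG controls, 6.36, 4.74 and 3.78 on day 1 and 2.73, 3.77 and 2.45 on day 6. One control overlapped day 1, and the day 1 change was 0.97 ± 0.31 (adjusted p = 0.449). Dlc1 had 99.4, 90.5 and 71.3 CPM in IgG, 91.6, 90.7 and 78.8 on day 1 and 75.1, 84.3 and 82.3 on day 6. Its day 1 change was 0.00 ± 0.11. Cdh5 had 41.0, 43.1 and 45.6 CPM in IgG, 60.5, 45.8 and 44.9 on day 1 and 44.3, 47.0 and 41.1 on day 6, where day 1 library 1 alone stood high (0.22 ± 0.11, adjusted p = 0.713). The score of the muscle genes in the 3 day 1 libraries of DRG was 3.62, -0.127 and -2.93, in the same order. In the IgG libraries it was -3.16, 3.01 and 3.40, and on day 6 -0.903, -3.08 and 0.173. IgG libraries 2 and 3, with scores near that of day 1 library 1, had Cdh5 at 43.1 and 45.6 CPM. With the muscle score as a covariate, edgeR gave day 1 changes of 0.53 for Pecam1 (adjusted p = 0.0192) and 0.99 for Aplnr (adjusted p = 0.0670). Tie1 was then at -0.25 (adjusted p = 0.300) and Flt1 at -0.28 (adjusted p = 0.486). Beyond this covariate, the part of muscle in the DRG values was not tested.

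Counted together on day 1 in DRG, 3 of the 10 were higher without overlap and 1 lower, against 7.55% and 5.65% of all genes, and 13.2% in either direction. Their median log2 change was 0.25, against 0.00 over all genes tested. On day 6 none was called against IgG, and none of 15461 genes was (0% called in edgeR, with 557 at an unadjusted p under 0.05, 2 in DESeq2 and 0 in limma voom). Aplnr (0.62 ± 0.21) and Pecam1 (0.12 ± 0.07) were higher and Flt1 lower without overlap, 3 of 10 against 8.88% of all genes (5.16% higher and 3.72% lower). From day 1 to day 6 Pecam1 was lower by 1.32-fold (adjusted p = 0.0838) and Bcl6b by 1.66-fold (adjusted p = 0.694), both without overlap, against 12.5% of all genes in either direction and 6.47% lower. No member passed in edgeR there, where 0.103% of all genes did, and 2 of the 10 had an unadjusted p under 0.05, as did 1056 of 15461 genes. DESeq2 called Pecam1 (adjusted p = 4.81e-04) among 105 genes in all, and limma voom called none of the 10 and 20 genes in all.

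Relative to the summed pan-endothelial genes, 4 of the 10 genes were higher on day 1 than in IgG in DRG without overlap and 2 lower, against 3.03% and 9.42% of all genes on the same scale (12.4% in either direction). Pecam1 was at 43.3 ± 3.42 in IgG, 58.7 ± 1.55 on day 1 and 45.3 ± 1.75 on day 6, in CPM per 1000 pan-endothelial CPM. Tie1 was at 39.1 ± 1.27, 30.7 ± 0.668 and 34.3 ± 1.41, and Flt1 at 32.9 ± 1.48, 25.4 ± 2.10 and 27.2 ± 1.04. Day 1 libraries lay above the controls for Pecam1, Apln, Aplnr and Bcl6b and below them for Tie1 and Flt1, each without overlap. With the pan-endothelial score as a covariate, edgeR gave Pecam1 0.47 (adjusted p = 0.0242), Tie1 -0.33 ± 0.06 (adjusted p = 0.130) and Flt1 -0.38 (adjusted p = 0.139). In paw, on the same scale, Bcl6b was at 4.63 ± 0.786, 11.3 ± 1.39 and 5.52 ± 0.678, and Apln at 6.28 ± 0.219, 11.9 ± 2.82 and 6.28 ± 1.04. Pecam1 in paw was at 104 ± 5.84, 136 ± 13 and 107 ± 6.42, and its day 1 libraries (124 to 149) lay above the controls (99.3 to 111). Dlc1 and Cdh5 were also higher on day 1 on this scale without overlap, and Tek was lower (25.7 ± 0.769 against 29.8 ± 1.72). In paw 2.51% of all genes were higher on this scale, 5.36% lower and 7.87% either, and nothing is read from the members there.

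**Figure D4:**
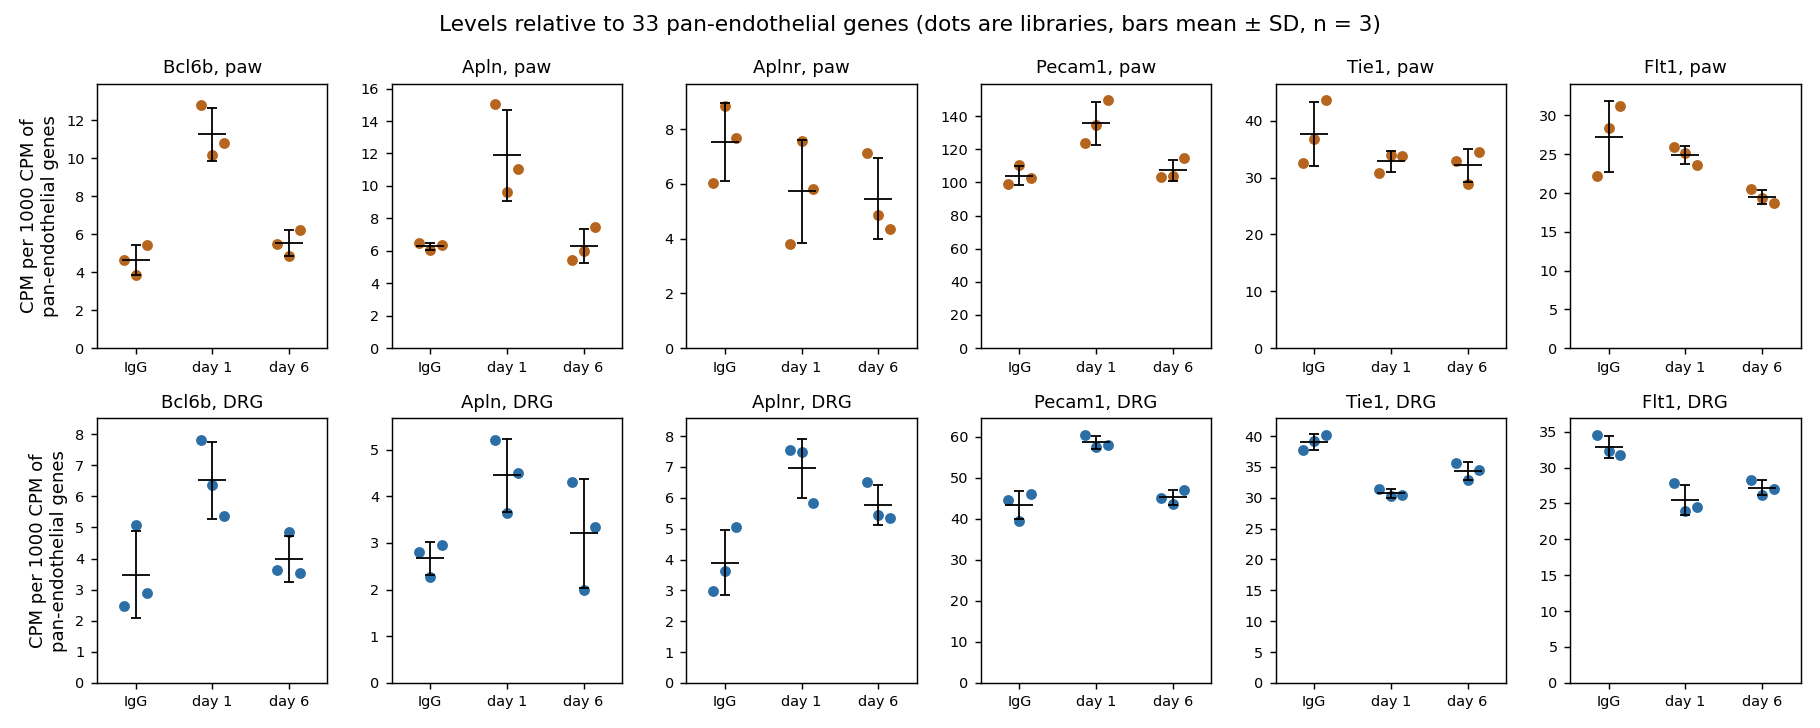
CPM of 6 genes per 1000 CPM of the summed 33 pan-endothelial genes, in paw and DRG (dots are libraries, bars mean ± SD, n = 3). In DRG, Pecam1 is higher and Tie1 and Flt1 are lower on day 1 than in IgG, each without overlap; in paw, Bcl6b, Apln and Pecam1 are higher on day 1 without overlap.

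Paw and DRG were set side by side in a fit to 18 libraries. The day 1 change of Dlc1 was larger in paw by 0.70 ± 0.15 on the log2 scale, and that of Bcl6b by 0.48 ± 0.38. For Aplnr it was smaller in paw by 1.16 ± 0.53, and for Pecam1 the difference was 0.02 ± 0.25. These differences draw on the paw values known beforehand and carry no test. For day 6 they were 0.43 ± 0.15 for Dlc1 and -0.88 ± 0.53 for Aplnr.

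In spinal cord, Tek and Kdr were higher on day 6 than on day 1 without overlap, and no gene passed the threshold in edgeR. Tek had 13.6, 14.7 and 15.1 CPM on day 1 and 22.3, 22.1 and 20.3 on day 6 (log2 0.58 ± 0.08, adjusted p = 0.463), the 2nd smallest p of 15096 genes. Kdr had 10.7, 12.4 and 11.1 CPM on day 1 and 20.4, 14.8 and 16.2 on day 6 (0.58 ± 0.14, adjusted p = 0.463). Flt1, at 43.7, 48.1 and 48.2 and then 49.5, 49.3 and 48.6 CPM, was also higher without overlap, by 0.07 ± 0.06. This made 3 of 10 higher without overlap, against 8.17% of all genes higher and 16.4% in either direction. Other endothelial genes were also higher without overlap: 10 of 32 pan-endothelial genes tested (1 lower), 4 of 10 neural barrier genes and 4 of 12 tip cell and Notch genes. Of 5 activated endothelium genes tested 0 were higher and 4 lower, and of 5 lymphatic genes 1 was higher. edgeR called none of the 10 and 0% of all genes, with 3 of the 10 and 1464 of all genes at an unadjusted p under 0.05. DESeq2 called 65 genes, Tek among them (adjusted p = 0.00252), and limma voom 0.

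Cord day 6 library 2 weighed on this comparison. Without it edgeR called 818 genes, among them Tek (adjusted p = 0.0225), Kdr (0.0244) and Cdh5 (0.0356). Meningeal genes summed to 204 CPM in that library and to 906 and 795 in the other day 6 libraries, against 177, 561 and 299 on day 1. With the meningeal score as a covariate Tek was at 0.57, Kdr at 0.48 and Cdh5 at 0.14, and with the pan-endothelial score they were at 0.55, 0.33 and -0.06. The log2 change of Cdh5 with no covariate was 0.34. Several lists of other cell types also had mostly positive changes from day 1 to day 6, with no gene called: 14 of 14 skeletal muscle genes (median 1.44), 9 of 10 Schwann cell genes (0.75), 8 of 10 fibroblast genes (0.54), 11 of 12 meningeal genes (0.38), 11 of 12 macrophage genes (0.34) and 12 of 12 mural cell genes (0.33). The median log2 change over all 15096 genes tested was 0.01. Other lists were less one-sided or went down. Positive there were 2 of 8 sensory neuron genes tested (-0.19), 4 of 8 astrocyte and oligodendrocyte genes (0.02), 2 of 4 platelet genes (0.18) and 3 of 5 keratinocyte genes (0.14). Beyond the covariates given, the part of these cell types in the values of Tek, Kdr and Cdh5 was not tested.

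The other cord genes overlapped between days. Cdh5 had 29.3, 37.9 and 32.2 CPM on day 1 and 50.4, 30.4 and 45.0 on day 6. Apln had 105, 97.2 and 116 CPM on day 1 and 91.2, 113 and 87.1 on day 6 (log2 -0.13 ± 0.11, adjusted p = 0.688). Aplnr ranged from 6.33 to 15.98 CPM, Bcl6b from 3.70 to 6.17, Tie1 from 24.3 to 32.4, Pecam1 from 39.7 to 54.8 and Dlc1 from 52.5 to 67.9 over the 6 libraries. Dlc1 was at 0.19 ± 0.08 (adjusted p = 0.504).

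Partners of these genes were tested in the same fits. Of 12 VEGF partners, 9 angiopoietin and Tie partners, 8 apelin partners tested, 11 junction partners and 11 genes of the Bcl6 and Dlc families, edgeR called none on day 1 in paw or DRG or between days in cord. Summed over these lists, unadjusted p were under 0.05 for 9 of 51 genes in paw, 8 in DRG and 5 in cord (17.6%, 15.7% and 9.8%), against 10.6%, 7.4% and 9.7% of all genes tested. On day 6 in paw Arrb2, which encodes a β-arrestin, was the only one called (15.1 ± 2.11 to 24.9 ± 1.61 CPM, log2 0.72 ± 0.13, adjusted p = 0.0490). Its call was lost with only the compared groups (adjusted p = 0.115) and in each of the 6 fits that left out a library (0.0596 to 0.218), 4 of which called no gene at all. In DRG Dok2, an adaptor that binds receptor tyrosine kinases including Tek and is prominent in blood cells, fell from 5.99 ± 0.871 CPM on day 1 to 2.60 ± 0.0658 on day 6 (log2 -1.21 ± 0.15, adjusted p = 0.0120). This call was lost in 4 of 6 fits, those without day 1 library 1 or any 1 of the day 6 libraries.

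Among the ligands, Vegfa was at 76.3 ± 7.32 CPM in paw controls and 83.2 ± 4.76 on day 1, and at 80.7 ± 2.27 and 78.6 ± 10.6 in DRG. Angpt2, an angiopoietin that is released by endothelium and can oppose Angpt1 at Tek, was at 6.98 ± 1.53 and 13.1 ± 3.90 CPM in paw without overlap. In DRG it had the opposite sign, at 34.8 ± 6.56 and 25.5 ± 3.73 CPM, again without overlap (log2 -0.45 ± 0.14, adjusted p = 0.447). Angpt1 had log2 changes of 0.57 ± 0.31 in paw and -0.05 ± 0.20 in DRG. Vegfb, Vegfc and Pgf, which encode other VEGF family ligands, were at 0.53 ± 0.43, 0.13 ± 0.32 and -0.31 ± 0.19 in paw and 0.07 ± 0.08, -0.29 ± 0.20 and -0.24 ± 0.12 in DRG.

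The co-receptors Nrp1 and Nrp2 were at 0.42 ± 0.20 and 0.35 ± 0.14 in paw and 0.10 ± 0.07 and 0.15 ± 0.10 in DRG on day 1, and Flt4, the lymphatic VEGF receptor, at -0.17 ± 0.22 and 0.01 ± 0.22. Bcl6, the relative of Bcl6b, was lower in paw without overlap, from 85.9 ± 17.5 to 57.2 ± 3.19 CPM, and at -0.19 ± 0.19 in DRG. Stard13 and Stard8, relatives of Dlc1, were at 0.33 ± 0.14 and 0.17 ± 0.27 in paw and 0.03 ± 0.11 and 0.21 ± 0.14 in DRG. The tight junction gene Cldn5 and the adhesion gene Esam overlapped between groups in both tissues.

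Set beside wider endothelial lists, the 10 genes had a median log2 change on day 1 of 0.37 in paw and 0.25 in DRG, and the pan-endothelial genes one of 0.16 and 0.07, against 0.01 and 0.00 over all genes tested. Of the 33 pan-endothelial genes 1 was called in DRG on day 1: Mmrn2, an extracellular matrix protein of endothelium, rose from 21.3 ± 0.957 to 32.7 ± 4.80 CPM (log2 0.62 ± 0.10, adjusted p = 0.0452). Its call was lost with only the compared groups and in 5 of 6 fits that left out a library, all but the one without day 1 library 3. Of the 33, 5 were higher without overlap and 3 lower, against the 7.55% and 5.65% of all genes given above. Besides Mmrn2 the higher ones were Icam2 (0.58 ± 0.21), Plvap (0.54 ± 0.20), Sox18 (0.40 ± 0.17) and Cd34 (0.23 ± 0.06). The lower ones were Sox17 (-0.48 ± 0.09), Ptprb (-0.35 ± 0.10) and Eltd1 (-0.30 ± 0.09). These 7 are named after their values were seen. Activated endothelium genes had a median of 1.02 there, and 3 of 6 tested were called: Cx3cl1 (1.56 ± 0.10, adjusted p = 8.35e-05), Icam1 (1.82 ± 0.19, 0.00373) and Vcam1 (2.26 ± 0.22, 0.0124). Over all genes tested there, 0.168% were called. The lists were chosen with earlier results of these data known, so these calls are given as a description. Of these, Vcam1 lost its call under a replicate block, with only the compared groups and without IgG library 2 or day 1 library 1. Lists of tip cell and Notch genes, of neural barrier endothelium and of lymphatic endothelium had no called gene on day 1 in either tissue. Unadjusted p were under 0.05 for 4 of 14, 0 of 8 and 0 of 6 of their genes tested in paw, against 10.6% of all genes. In DRG they were so for 0 of 14, 4 of 10 and 1 of 5, against 7.4%. Without overlap in DRG, 1, 1 and 1 of these genes were higher and 1, 3 and 0 lower, against the same 7.55% and 5.65%.

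**Figure D5:**
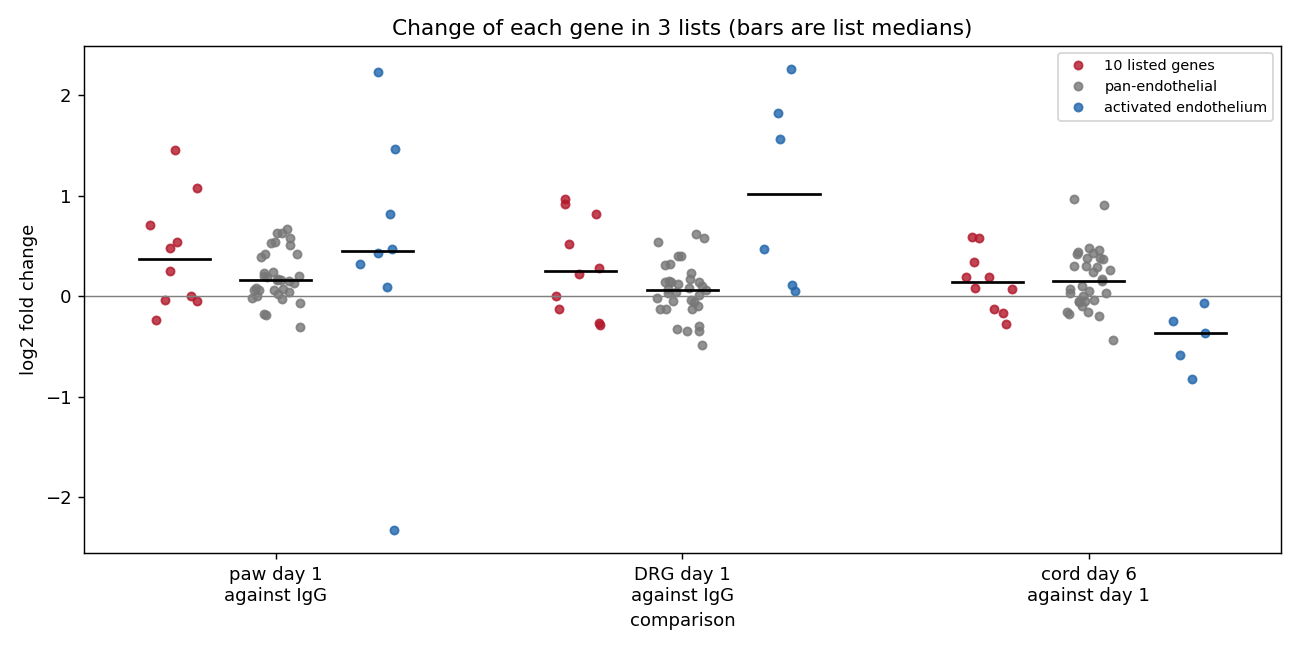
Log2 fold change of each of the 10 genes, of the pan-endothelial genes and of the activated endothelium genes, with list medians as bars, in 3 comparisons. In DRG on day 1 the medians are 0.25, 0.07 and 1.02, and in cord for day 6 against day 1 they are 0.14, 0.16 and -0.365.

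The 10 genes varied together to different degrees. Of 45 pairs, 43 had a positive Pearson correlation of log2 CPM over the 9 paw libraries (median 0.683), 31 over the 9 DRG libraries (0.290) and 26 over the 6 cord libraries (0.115). In paw Bcl6b ran with Apln (0.955) and Dlc1 (0.952) and not with Aplnr (0.0249). In cord Apln correlated negatively with every other gene of the 10, from -0.103 (Aplnr) to -0.875 (Tie1). These libraries share treatment groups and, in paw, library IgG 1, so the values describe the samples. Over 18 paw and DRG libraries centred by tissue, the genes with a pattern most like Bcl6b, of 11713 searched, were Meox1 (0.876), Relb (0.871), Ccl2 (0.869), Taf10 (0.862) and the gene model Gm12824 (0.852). For the mean of the other 9 genes they were Gng11 (0.920), Icam2 (0.917), Phyhd1 (0.908), Robo4 (0.908) and Itga1 (0.898), of 11704.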

How the data were processed

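Whole-number read counts were deposited by the authors for each gene and library, and 5 summary lines per file were removed. The submitters' processing notes name bcl2fastq, TopHat2, HTSeq and the mm9 build. The sources used here do not give the counter's annotation or its handling of strand. Per the labels' protocols, about 500 ng of total RNA per sample entered a strand-specific mRNA preparation, read singly over 50 bases. There were 0 columns of other samples.

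A fit per tissue used edgeR 4.0.16 in R 4.3.3, with TMM factors, filterByExpr defaults and robust dispersions, and took p from quasi-likelihood F tests. Genes kept numbered 15287 (paw), 15461 (DRG) and 15096 (cord). Tissues were compared in a fit to 24 libraries (16864 genes), and paw with DRG changes by an interaction over 18 (16461 genes). Adjusted p are 2-sided Benjamini-Hochberg values over all genes of a comparison, with a threshold of 0.05. CPM errors are SD over 3 libraries, and errors of log2 changes are SE. Exon lengths are unions of GENCODE vM21 exons, which may differ from the annotation the authors counted with. Scores are mean log2 CPM (prior count 2) centred within a tissue, and the likeness search used genes whose mean log2 CPM reached 1 in both tissues. Named genes are the 10, a set of partners whatever their p, and each listed gene of a pathway or endothelium past the threshold. The 10 genes and 20 further lists of 224 symbols (223 matched) were chosen with earlier results of these data known. Of 24 replicate pairs 0 were identical, and counts of each pair differed beyond sampling noise. The pipeline was tested on simulated data. Alternatives were RLE factors, no filter or a minimum of 1 CPM (3 libraries), DESeq2 1.42.0, voom of limma 3.58.1 with sample weights, a replicate block, only the compared groups, score covariates and each library left out.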

Additional observations from a re-analysis of the deposited data

How the results depend on the processing

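Of the 1370 log2 changes of the 10 genes under alternatives, 1314 kept their side of the threshold, with the same sign or a sign change under 1 SE. Another 23 newly passed, 26 no longer passed and 7 changed sign by at least 1 SE short of the threshold. Where the sign was kept, size did not enter this count: Kdr in cord went from 0.58 to 0.33 with the pan-endothelial score. In all 67 changed sign, none of them past the threshold in either fit, with sizes of at most 0.35. The 1370 include changes called in no fit and differences between tissues, so their total says little of the calls within tissues. Within tissues the main fits called Pecam1 in DRG on day 1, kept in 10 of 15 alternatives. They also called Bcl6b in paw for day 6 against day 1, kept in 7 of 15. Counts of the 10 past the threshold moved as follows, and the cause was not tested. In paw, day 1 against IgG went from 0 to 3 with DESeq2, and day 6 against IgG from 0 to 1 with DESeq2. For day 6 against day 1 in paw the count of 1 became 0 with the stricter filter, 3 with limma voom, 3 with DESeq2, 2 with the muscle score, 2 with the pan-endothelial score and 2 with only the compared groups, and 0 to 0 with a library left out. In DRG, day 1 against IgG went from 1 to 2 with DESeq2, 0 with only the compared groups, and 0 to 1 with a library left out. For day 6 against day 1 in DRG it went from 0 to 1 with no filter, DESeq2 or the pan-endothelial score, each time Pecam1. In cord it went from 0 to 1 with DESeq2 and 0 to 3 with a library left out.

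Over all genes, the calls on day 1 were 1 in paw (0 to 209 over other settings) and 26 in DRG (11 to 131; 8 to 35 with a library left out). Those on day 6 were 108 in paw (0 to 509; 0 to 155 with a library left out) and 0 in DRG (0 to 2). Day 6 against day 1 gave 157 in paw (139 to 737; 0 to 141), 16 in DRG (11 to 105; 1 to 24) and 0 in cord (0 to 65; 0 to 818). With a library left out of an arm, the fit pooled the spread of the other libraries. Within a tissue, samples of the same number in different groups correlated at -0.692 to 0.317, with 5 of 21 pairs over 0.1. Paw and DRG samples of the same number were not compared, so whether they share an animal was not tested. With the replicate number as a block, the count for day 6 against day 1 in paw was 0, and DRG day 1 kept Pecam1 among 29 called genes. The lowest counts in a library were 37 for Bcl6b, 42 for Apln and 45 for Aplnr.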
